A study of Mus musculus with 24 samples.

Results

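Airway epithelial cultures from female and male mice were each held in air or in cigarette smoke, and the quantity described here is the difference between the 2 smoke responses, gene by gene. The interaction of a gene is the change from air to smoke in the female cultures minus the change from air to smoke in the male cultures, on the scale of log2(normalised count + 1). A positive interaction means that the level in smoke relative to air was higher in the female cultures, whether through a larger rise or a smaller fall. The members are all autosomal genes whose normalised count averaged at least 10, which gave 13124 of the 25239 genes in the table, measured in all 24 libraries. The cells were tracheal epithelial cells of FVB/NJ mice, wild-type and 7 to 8 weeks old, that were expanded and then differentiated for 10 to 14 days at an air-liquid interface, where the upper face of the layer meets air. Each of the 4 groups held 6 inserts, the membranes on which a culture grows. Female air and male air received humidified air for 10 days, and female smoke and male smoke received cigarette smoke over the same 10 days, with 2 cigarettes burned over about 8 minutes in an exposure. The labels name no donor animals, so the 6 inserts of a group may come from 1 preparation of cells. The p-values then measure the spread between inserts, and the sex of the cells cannot be told apart from the preparation.

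An airway epithelium differentiated in this way holds basal cells, which renew the layer, secretory cells and multiciliated cells. Inhaled smoke carries oxidants and aromatic hydrocarbons, and airway cells are known to respond through the antioxidant and aryl hydrocarbon receptor pathways, through the release of chemokines that attract neutrophils and, with long exposure, through a shift from ciliated to stratified squamous cells. Epithelial markers were present in all 24 libraries: Krt5, a keratin of basal cells, ranged from 38677 to 209524 normalised counts, and Cdh1, the adhesion molecule E-cadherin, from 15436 to 23134. The ciliated and secretory cell markers varied far more, with Foxj1 between 20.4 and 7708 and the secretoglobin Scgb1a1 between 14.4 and 13932. Ptprc, which marks leukocytes, did not exceed 8.31 normalised counts in any library. In bulk RNA, fewer cells of a type and less RNA per cell cannot be told apart.

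The smoke responses differed between the culture sets for 134 genes at an adjusted p under 0.05 (limma, Benjamini-Hochberg over all 13549 genes tested), which is 1.02% of the autosomal genes. Of these, 89 genes (0.678%) had a positive and 45 (0.343%) a negative interaction, and 1738 genes had an unadjusted p under 0.05. A call on the interaction favours genes with a large interaction, so the sizes given next describe the calls. The median absolute interaction of the called genes was 1.47 on the log2 scale against 0.22 over all autosomal genes. Of the 134 genes, 93 reached at least 1, which is a difference of 2-fold between the responses. The median interaction over all autosomal genes was -0.01.

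Female air insert 1 and female smoke insert 4 stood apart from the libraries of their groups. Their deviation from the median of the other inserts of their group fell with transcript length (Spearman's rho across genes -0.664 and -0.424), so that short transcripts read high in them. Leaving both out reduced the median standard error (SE) of the interaction from 0.28 to 0.17 and raised the number of called genes to 819 (6.24%), of which 487 (3.71%) were positive and 332 (2.53%) negative. All 134 genes called with 24 libraries were called again with these 22 libraries, with the same sign. Without female air insert 1 alone 419 genes were called, and without female smoke insert 4 alone 238.

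The inserts numbered 1 to 3 and those numbered 4 to 6 gave different pictures over the whole set of genes, a division that the labels do not describe as a batch. Tested on their own, inserts 1 to 3 gave 37 called genes and inserts 4 to 6 gave 619. Over all autosomal genes the interaction had the same sign in both sets for 41.1%, and for 53.3% once the pair of libraries with a length trend was left out. Of the 37 genes called in inserts 1 to 3, 28 (75.7%) had the same sign in inserts 4 to 6. Of the 619 called in inserts 4 to 6, 394 (63.7%) had the same sign in inserts 1 to 3. Just 5 genes were called in both sets, which is 13.5% of the calls of inserts 1 to 3 and 0.808% of those of inserts 4 to 6. These 5 were Gja1, Gm94, Krt23, Pcca and Ppbp, and they are named here for that reason, after their values were seen. With the length-trend libraries left out, 102 genes were called in both sets with the same sign. They made up 28.4% of the 359 calls of inserts 1 to 3 and 3.89% of the 2625 calls of inserts 4 to 6. In these fits female air lacked 1 insert in the first set and female smoke lacked 1 in the second. For the genes below, values set side by side for the insert sets give inserts 1 to 3 first and inserts 4 to 6 second.

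Among the 134 called genes, 94 had smoke responses of opposite sign in the 2 culture sets, a share read beside 22.9% of all autosomal genes, although a call on the interaction itself favours such genes. In 62 of them the female value went up and the male value down, and in 32 the reverse. Smoke changed 4584 autosomal genes in the female cultures (34.9%) and 2882 in the male cultures (22%). By these calls, 51 of the 134 changed in the female cultures alone, 41 in the male cultures alone, 17 in both in the same direction and 25 in both in opposite directions. Over all autosomal genes the first 3 patterns held 20.9%, 7.9% and 13.9%. Calls of opposite direction in both sets were rare over the whole set of genes, at 27 genes or 0.206%.

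**Figure D1:**
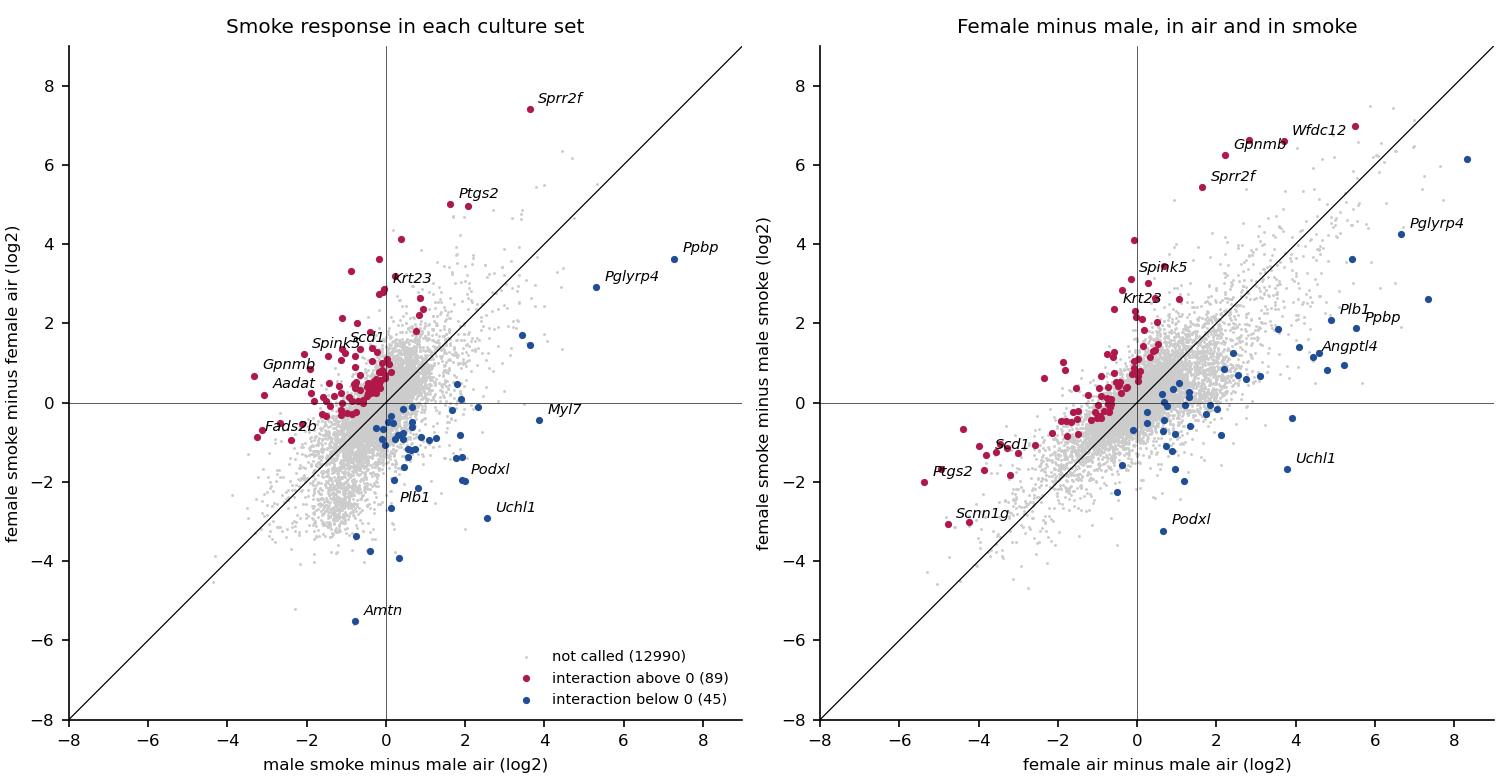
Left, the smoke response of the female cultures against that of the male cultures for 13124 autosomal genes, in log2 units. Right, the female minus male difference in smoke against that in air, also in log2 units. Each point is a gene, the diagonal marks an interaction of 0, the 89 called genes above it are red and the 45 below it are blue. Called genes fill the upper left quadrant of the left panel, where 62 genes had a positive female and a negative male response.

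Genes of lipid desaturation were called with a positive interaction. Scd1, the stearoyl-CoA desaturase that makes monounsaturated fatty acids, lies on chromosome 19 (mm10 44394449 to 44407709, minus strand). It ranged from 599.4 to 1201 normalised counts in female air (median 1131) and from 1818 to 4174 in female smoke (median 2468). In the male cultures it ranged from 11436 to 16916 in air (median 14802) and from 4518 to 8965 in smoke (median 6508). No 2 of these 4 ranges overlapped: smoke raised Scd1 in the cultures where it was low and lowered it where it was high. The female response was 1.36 ± 0.21 (SE, n = 6 per group) and the male response -1.11 ± 0.21, giving an interaction of 2.47 ± 0.29 (adjusted p = 0.000106). Inserts 1 to 3 gave 2.11 and inserts 4 to 6 gave 2.84.

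Fads2b, a relative of the fatty acid desaturase Fads2, started from like levels and parted in smoke. Its median was 5953 in female air and 6924 in male air, and the air ranges overlapped. Smoke left it between 1979 and 5598 in the female cultures and between 504.2 and 1295 in the male cultures, with no overlap. The interaction was 2.39 ± 0.39 (adjusted p = 0.00375), as its log2 level fell by 0.87 in the female and fell by 3.26 in the male cultures. The insert sets differed in size for Fads2b, at 3.5 and 1.28. Acsl1, which activates long-chain fatty acids, had an interaction of 1.32 ± 0.29, with 1.85 and 0.79 in the insert sets. Of the 23 tested genes of fatty acid synthesis and desaturation these 3 were called, all positive, and the median interaction of the list was 0.44, read beside -0.01 for all autosomal genes. In the fit of 22 libraries 3 were called positive and 1, Elovl7, negative. Over all autosomal genes 0.678% were called positive with 24 libraries, and 3.71% positive and 2.53% negative with 22.

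Genes of the stratified squamous layer moved in both directions. Spink5, an inhibitor of the kallikrein proteases that shed the outer layer of skin, had a median of 3225 in female air, 7275 in female smoke, 3689 in male air and 1142 in male smoke. The air ranges overlapped, while all 6 female smoke inserts (3878 to 16466) lay above all 6 male smoke inserts (253.9 to 1531). It rose by 1.22 ± 0.35 in the female and fell by 2.07 on the log2 scale in the male cultures, an interaction of 3.29 ± 0.50 (adjusted p = 0.00241), with 3.20 and 3.38 in the insert sets. Krt23, a type I keratin, rose in the female cultures from a median of 196.2 (125.3 to 435.1) to 1498 (902.5 to 3157). In the male cultures it had medians of 301.4 in air and 341.8 in smoke, with overlapping ranges. Its interaction was 2.93 ± 0.42 (adjusted p = 0.00195), with 2.46 in inserts 1 to 3 and 3.40 in inserts 4 to 6. Tmprss11a, a membrane serine protease, followed the same pattern, with medians of 55.1 and 429.0 in female air and smoke and of 46.7 and 35.2 in male air and smoke. The insert sets gave Tmprss11a 3.36 and 5.04. Krt23 and Tmprss11a were not members of the squamous gene list counted below.

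Sprr2f, a small proline-rich protein that is cross-linked into the cornified envelope, rose in both culture sets and more in the female. Female air held 2.18 to 7.94 normalised counts and female smoke 311.7 to 3100, while male air held 0 to 2.21 and male smoke 11.3 to 47.7. The interaction was 3.78 ± 0.64 (adjusted p = 0.0051), with 4.61 and 2.95 in the insert sets. All 5 reads of the male air libraries together stand behind the male starting level, so the size depends on the pseudocount, being 3.37 with a pseudocount of 0.5 and 4.47 with 5. Sprr2f is 1 of a cluster of near-identical genes among which reads may be split, so its level is uncertain. Against these, Krt6a, a keratin of stressed epithelia, had a negative interaction of -1.72 ± 0.42, as it rose by 1.71 in the female and by 3.43 in the male cultures. The insert sets gave Krt6a -2.67 and -0.77. Sbsn, the cornified layer protein suprabasin, was also negative at -2.44 ± 0.55. It had medians of 682.5 and 747.5 in female air and smoke, and it rose in the male cultures from 89.3 to 378.1, with 6 of 6 smoke inserts above all air inserts. For Sbsn the difference came mainly from inserts 1 to 3, at -3.99 against -0.89. Over the squamous list 2 of 39 tested genes were called positive and 2 negative, against 0.678% and 0.343% of all autosomal genes. The list's median interaction was 0.24 with 24 and 0.25 with 22 libraries. In inserts 1 to 3 the median was -0.06.

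The levels of 2 subunits of the epithelial sodium channel fell in male smoke. Scnn1g, the gamma subunit, fell in the male cultures from 1876 to 2777 normalised counts in air (median 2417) to 446.9 to 1042 in smoke (median 851.1). In the female cultures it was low throughout, with medians of 86.9 in air and 99.5 in smoke. The interaction was 1.72 ± 0.37 (adjusted p = 0.0246), with 1.0 in inserts 1 to 3 and 2.43 in inserts 4 to 6. Scnn1b, the beta subunit, fell from a median of 767.6 to 140.8 in male cultures and had medians of 51.8 and 40.1 in female cultures, with an interaction of 2.16 ± 0.48 (adjusted p = 0.0286) and 1.48 and 2.85 in the insert sets. These were the called members among 28 tested genes of ion and water transport, against 0.678% of all autosomal genes called positive. The median interaction of that list was 0.27. The list's median was 0.44 in inserts 1 to 3 and -0.10 in inserts 4 to 6. Once the length-trend libraries were left out, these were 0.34 and 0.24.

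**Figure D2:**
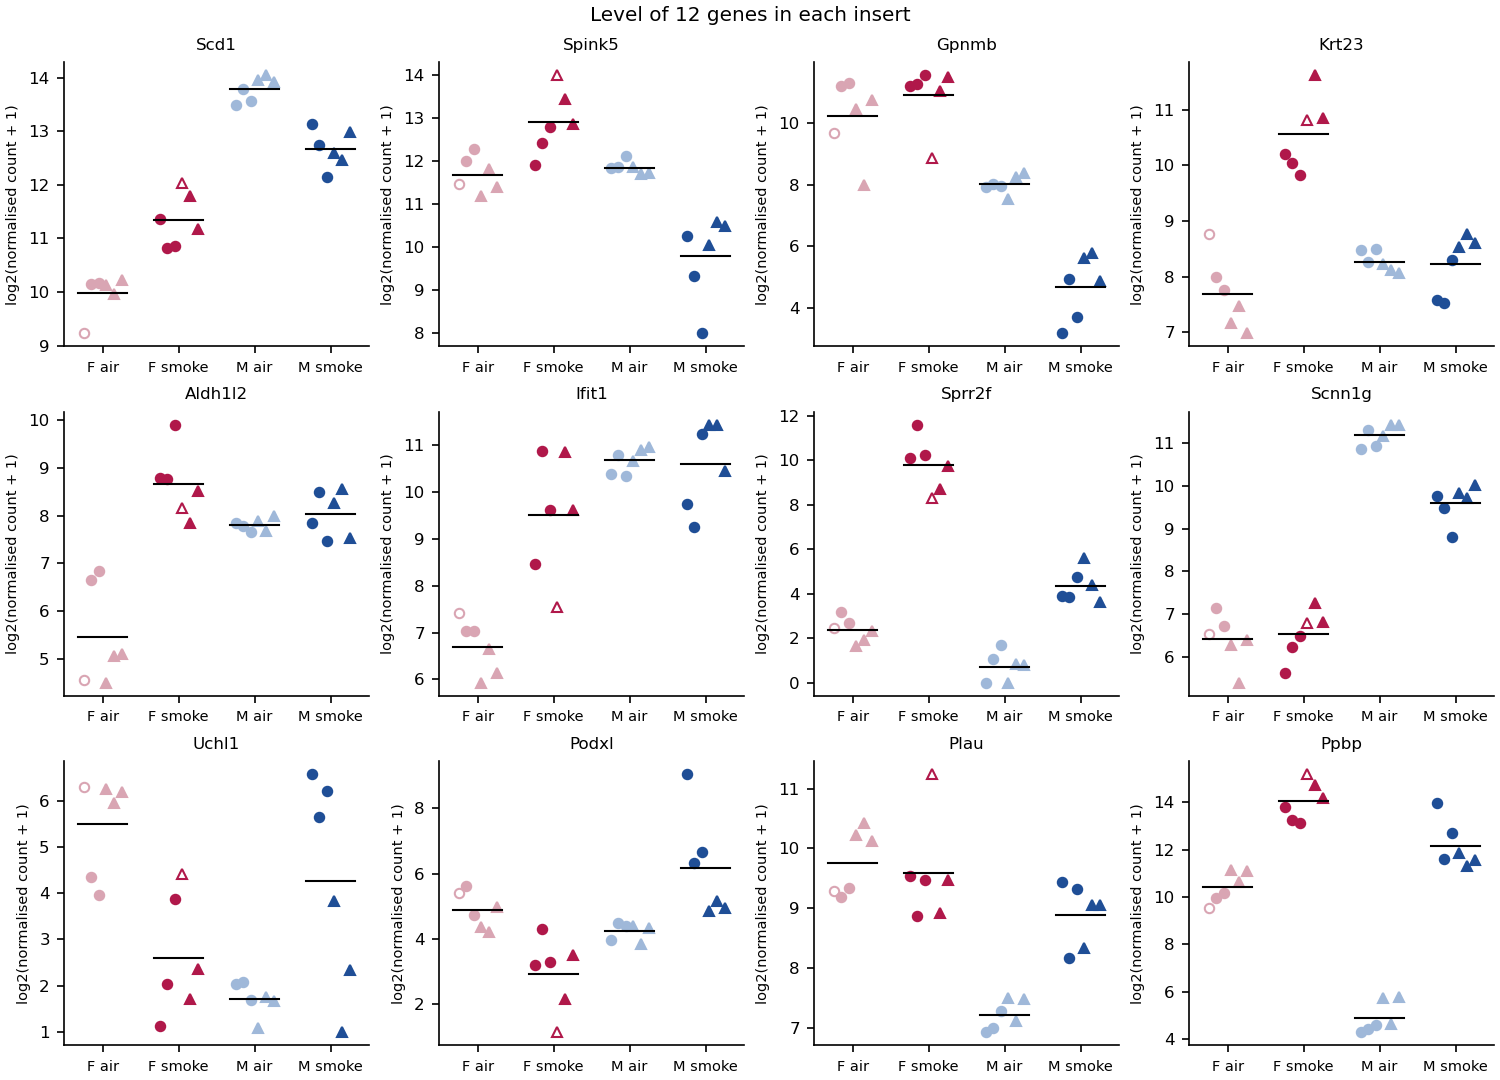
Normalised counts of 12 genes as log2(count + 1) in each of the 24 inserts, by group (F female, M male). Circles are inserts 1 to 3, triangles inserts 4 to 6, open symbols female air insert 1 and female smoke insert 4, and bars the mean of 6 inserts. Scd1 rose in all female and fell in all male cultures relative to air, and Ppbp rose in both from a far lower male starting level.

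Called genes from a list tied to the stress factor ATF4, with members of amino acid and one-carbon metabolism, had positive interactions. The part of ATF4 in these genes was not tested. Aldh1l2, a mitochondrial folate enzyme, rose in the female cultures from a median of 33.0 (21.8 to 114.6) to 398.6 (229.3 to 952.8), with no overlap. In male cultures it had medians of 223.4 in air and 267.3 in smoke, and the smoke range of 176.4 to 374.7 enclosed the air range. The interaction was 2.98 ± 0.52 (adjusted p = 0.00636), with 2.94 and 3.02 in the lower and higher numbered inserts. Slc7a5, the large neutral amino acid transporter, rose in both, from 489.2 to 2603 in the female and from 1256 to 2553 in the male medians, so that the smoke levels came close. Its interaction was 1.44 ± 0.34 (adjusted p = 0.042), with 0.89 and 1.98 in the insert sets. These 2 of the 29 tested genes of the list were called with 24 libraries, where 0.678% of all autosomal genes were called positive. With 22 libraries 8 were called, all positive, against 3.71% of all autosomal genes called positive. Among the 8 were Asns, which makes asparagine, at 1.12 (adjusted p = 0.0295), Cth, which makes cysteine, at 1.24, and Phgdh, the entry step of serine synthesis, at 0.69. The list's median interaction was 0.51 with 24 and 0.59 with 22 libraries, with 0.34 in inserts 1 to 3 and 1.0 in inserts 4 to 6. By contrast the chaperones and folding enzymes of the unfolded protein response had a median of -0.23. Of those 23 genes limma called none with 24 libraries (3 had an unadjusted p under 0.05, while edgeR and DESeq2 called 0). With 22 libraries 5 were negative (Hsp90b1, Pdia3, Pdia4, Manf and Hyou1), against 2.53% of all autosomal genes, and 1, Sel1l, was positive.

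Inflammatory mediators differed gene by gene. Ptgs2, the inducible cyclooxygenase, had a median of 30.8 in female air and 680.0 in female smoke, against 969.7 and 3444 in the male cultures. It rose by 5.00 ± 0.51 in the female and 1.63 ± 0.51 in the male cultures, an interaction of 3.36 ± 0.73 (adjusted p = 0.0246), with 2.43 and 4.30 in the insert sets. The male level remained higher in smoke by 2.00 on the log2 scale, so the larger female rise began from a much lower level. Cxcl3, a chemokine that attracts neutrophils, rose from 21.6 to 723.1 in the female and from 70.5 to 365.2 in the male medians. Its interaction was 2.88 ± 0.67 (adjusted p = 0.0367), and both insert sets gave 2.88. Ppbp, a chemokine of the same gene cluster on chromosome 5, went the other way. It rose in the female cultures from 747.0 to 2254 in air (median 1368) to 8972 to 37494 in smoke (median 16452), and in the male cultures from 18.6 to 54.1 (median 23.4) to 2550 to 15970 (median 3443). The interaction was -3.64 ± 0.61 (adjusted p = 0.00451), from rises of 3.63 and 7.27, and the insert sets gave -4.83 and -2.46. Of 15 tested neutrophil chemokines and related genes 1 was called positive and 1 negative, against 0.678% and 0.343% of all autosomal genes. The median interaction of these 15 was 1.0.

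The transcriptional regulators Bcl3 and Junb responded in the female cultures. Bcl3, a nuclear partner of NF-kappaB, ranged from 943.9 to 1095 in female air, 1386 to 2372 in female smoke, 694.4 to 847.5 in male air and 656.0 to 761.5 in male smoke. Every female smoke insert exceeded every other library, and the interaction was 0.92 ± 0.14 (adjusted p = 0.00241), with 1.07 and 0.78 in the insert sets. Junb, an AP-1 subunit, gave 0.90 ± 0.22 (adjusted p = 0.0476), from a female rise of 0.98 and a male value of 0.08, with 0.92 and 0.87 in the insert sets. Over the 30 tested genes of the NF-kappaB and AP-1 list these 2 were called, where 0.678% of all autosomal genes were called positive. A positive value was held by 26 of 30, with a median of 0.53. That median was 0.90 in inserts 1 to 3 and 0.16 in inserts 4 to 6.

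Ifit1, an interferon-induced protein that binds viral RNA, rose in the female cultures from 59.9 to 168.9 (median 114.6) to 187.0 to 1894 (median 785.6). In the male cultures it was already high in air, with a median of 1702, and had a median of 1903 in smoke. The interaction was 2.89 ± 0.66 (adjusted p = 0.034), with 2.92 and 2.85 in the insert sets. Of 59 tested interferon-response genes it was the single call with 24 libraries, where 1.02% of all autosomal genes were called. In the 22-library fit 3 of 59 were called, all positive, against 3.71% of all autosomal genes called positive, so the list's share was near the background in both fits. The other calls were Ifit2 at 1.99 and Trim30a at 2.37. The list's median was 0.24 with 24 and 0.44 with 22 libraries.

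Promoters of 5 of the genes described above are shown so that their start regions can be read beside the values. Ifit1, Sprr2f and Ppbp were called in both fits, and Trim30a and Asns with 22 libraries alone. They were taken from RefSeq on GRCm38.p6, the C57BL/6J reference and not the FVB/NJ strain, as 250 bases before to 50 bases after the transcription start, 5′ to 3′ on the gene's strand, and capitals mark a searched motif on either strand. In Ifit1 and Trim30a the capitals mark the interferon-stimulated response element, written GAAA, any pair of bases, then GAAA, or its reverse complement, found in 3.49% of 27025 promoters of this length. In Asns they mark TGATGNAA, the composite site bound by ATF4, found in 4.06%. In Sprr2f and Ppbp they mark TGANTCA, the AP-1 site, found in 7.93%.
Ifit1, chr19:34640639-34640938, plus strand: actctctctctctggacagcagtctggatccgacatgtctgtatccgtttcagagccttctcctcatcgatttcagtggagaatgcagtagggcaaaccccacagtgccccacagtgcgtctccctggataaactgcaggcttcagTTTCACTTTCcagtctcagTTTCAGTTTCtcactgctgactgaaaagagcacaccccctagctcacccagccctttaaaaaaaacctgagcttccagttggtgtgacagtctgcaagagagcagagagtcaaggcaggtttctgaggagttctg
Trim30a, chr7:104465144-104465443, minus strand: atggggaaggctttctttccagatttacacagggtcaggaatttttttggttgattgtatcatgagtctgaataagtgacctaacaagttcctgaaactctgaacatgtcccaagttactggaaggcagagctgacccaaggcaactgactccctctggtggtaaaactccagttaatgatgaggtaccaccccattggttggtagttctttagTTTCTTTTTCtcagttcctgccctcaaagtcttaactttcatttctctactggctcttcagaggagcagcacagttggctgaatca
Asns, chr6:7693160-7693459, minus strand: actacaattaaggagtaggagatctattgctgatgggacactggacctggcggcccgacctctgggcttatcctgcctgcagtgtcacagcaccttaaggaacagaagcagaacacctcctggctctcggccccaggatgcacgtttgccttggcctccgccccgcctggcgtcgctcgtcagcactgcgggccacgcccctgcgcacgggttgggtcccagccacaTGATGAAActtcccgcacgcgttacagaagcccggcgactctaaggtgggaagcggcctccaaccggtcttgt
Sprr2f, chr3:92364937-92365236, plus strand: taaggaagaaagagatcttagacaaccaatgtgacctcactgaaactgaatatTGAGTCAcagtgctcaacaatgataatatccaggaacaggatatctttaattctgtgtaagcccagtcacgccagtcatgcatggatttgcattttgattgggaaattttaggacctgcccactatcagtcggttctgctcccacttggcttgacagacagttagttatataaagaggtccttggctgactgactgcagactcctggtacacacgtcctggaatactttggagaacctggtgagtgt
Ppbp, chr5:90768268-90768567, plus strand: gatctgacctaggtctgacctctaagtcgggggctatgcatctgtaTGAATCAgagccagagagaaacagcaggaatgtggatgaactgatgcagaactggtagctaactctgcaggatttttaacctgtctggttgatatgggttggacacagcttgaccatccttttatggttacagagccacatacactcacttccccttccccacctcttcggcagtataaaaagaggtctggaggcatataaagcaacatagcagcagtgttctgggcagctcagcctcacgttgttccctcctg
Ifit1 held 2 such matches, at bases 147 to 156 and 166 to 175 of the window, and Trim30a held 1, at bases 215 to 224. The Asns match lay at bases 228 to 235, the Sprr2f match at 54 to 60 and the Ppbp match at 47 to 53. Matches to the other searched motifs were left in lower case. Trim30a held an AP-1 site at bases 294 to 300, and Asns an antioxidant response core, TGACNNNGC, at 79 to 87. Sprr2f held that core at 114 to 122 and a dioxin response core, TNGCGTG, at 121 to 127. These cores were found in 12.5% and 5.12% of promoters. A match describes these letters and shows no binding.

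Secreted antimicrobial proteins also split. Wfdc12, a whey acidic protein of epithelial secretions, rose in the female cultures from a median of 14.7 (8.72 to 54.8) to 130.8 (38.6 to 264.5). The male libraries held at most 1.07 normalised counts in air and 0.989 in smoke, so no male fold is given, and the interaction of 2.90 ± 0.64 (adjusted p = 0.0286) is in effect the female rise, with 2.70 and 3.10 in the insert sets. Pglyrp4, a peptidoglycan recognition protein, rose in both from 191.5 to 1372 in the female and from 0.518 to 82.3 in the male medians. Its interaction of -2.40 ± 0.57 (adjusted p = 0.0423) rested on 10 male air reads and was -0.80 with a pseudocount of 5, against -3.01 with 0.5. The insert sets gave Pglyrp4 -2.97 and -1.83. Over the list of 28 tested genes 1 was called positive and 1 negative, against 0.678% and 0.343% of all autosomal genes.

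The named genes with a positive interaction also included Nrg1, Wnt3a and E2f2. Nrg1, a ligand of the ERBB receptors, rose from a median of 212.1 (121.7 to 239.4) to 969.9 (554.6 to 1407) in the female cultures and from 844.4 (753.2 to 1072) to 1512 (1170 to 2523) in the male cultures. The interaction was 1.37 ± 0.31 (adjusted p = 0.0287), with 0.83 and 1.91 in the insert sets. It was the 1 called gene among 25 tested genes of Notch and EGF receptor signalling, where 1.02% of all autosomal genes were called. With 22 libraries 3 of these were positive (Rfng, Erbb3 and Nrg1) and 3 negative (Jag1, Hes6 and Lfng). Over all autosomal genes 3.71% were called positive and 2.53% negative in that fit. The list's median interaction was 0.34 with 24 and 0.30 with 22 libraries. Wnt3a, a canonical Wnt ligand, fell in the male cultures from 19.5 to 5.61 and had medians of 34.4 and 56.4 in the female cultures, with an interaction of 2.76 ± 0.64 (adjusted p = 0.0357) and 2.92 and 2.60 in the insert sets. Wnt3a stood on none of the lists. E2f2, a transcription factor of the G1 to S transition, fell in the male cultures from 82.6 to 117.0 (median 102.9) to 24 to 60.7 (median 48.8). It had female medians of 50.1 and 71.9, and its interaction was 1.59 ± 0.28 (adjusted p = 0.00636), with 1.51 and 1.67 in the insert sets. It was the 1 called gene among 41 of DNA replication, a list whose median interaction was 0.53 with 24 and 0.33 with 22 libraries.

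With 24 libraries the mitosis list had the highest median interaction of the 46 lists, at 1.23. With 22 libraries its median was 0.98, below the 1.39 of the neutrophil chemokine list. None of the 39 tested mitosis genes was called with 24 or with 22 libraries. In the limma fits 26 had an unadjusted p under 0.05 with 24 libraries and 13 with 22, and edgeR and DESeq2 on the recovered reads called 0. All 39 values were positive in both limma fits. The median female response was 1.28 and the median male response 0.08. Mki67, which marks dividing cells, had medians of 1540 and 3458 in female air and smoke and of 973.6 and 1335 in male air and smoke, with an interaction of 1.26 ± 0.52 (adjusted p = 0.283). Library by library, the mean log2 level of the list lay between 7.99 and 8.47 in female air and between 8.58 and 10.50 in female smoke. The 10.50 belonged to female smoke insert 4, a length-trend library. In the male cultures the mean level lay between 7.57 and 8.05 in air, while the smoke inserts spread from 6.41 to 8.67. Male smoke inserts 2 and 3, at 6.53 and 6.41, lay below every air insert and inserts 4 to 6, at 8.47 to 8.67, above every air insert. The list's median was 1.42 in inserts 1 to 3 and 1.02 in inserts 4 to 6.

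Gja1, which encodes the gap junction protein connexin 43, had an adjusted p of 2.62e-06. It rose in the female cultures from 2246 to 3569 normalised counts (median 3137) to 5384 to 9759 (median 7096) and fell in the male cultures from 4846 to 5669 (median 5043) to 2570 to 3406 (median 3026). The groups did not overlap within either set. The interaction was 1.97 ± 0.18, with 1.92 in inserts 1 to 3 and 2.02 in inserts 4 to 6. Pcca, a subunit of the mitochondrial propionyl-CoA carboxylase, fell by 1.5 in the male cultures and had a female value of -0.33, with an interaction of 1.17 ± 0.18 and 1.58 and 0.76 in the insert sets. Gpnmb, a lysosomal glycoprotein, fell in the male cultures from a median of 253.5 (183.3 to 329.5) to 28.8 (7.95 to 54.4). Its female ranges overlapped, from 253.8 to 2537 in air and from 466.3 to 3034 in smoke. The interaction was 4.01 ± 0.74 (adjusted p = 0.00785), with 4.66 and 3.37 in the insert sets. Gpnmb also stood on the leukocyte list, whose 25 markers summed to between 0.0553% and 0.578% of the normalised total in the 24 libraries. The macrophage marker Adgre1 did not exceed 0.923 normalised counts in any library. Aadat, an aminotransferase of lysine and kynurenine breakdown, fell in the male cultures from a median of 59.5 to 7.65, and the female libraries held at most 3.42 normalised counts. Its interaction was 3.27 ± 0.79 with a pseudocount of 1 and 2.46 with 5. The insert sets gave Aadat 4.84 and 1.69.

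The named genes with a negative interaction included Plau, Podxl and Uchl1. Plau, the urokinase plasminogen activator, rose in the male cultures from 120.2 to 178.8 (median 144.9) to 285.2 to 690.8 (median 529.9). In the female cultures it had medians of 879.2 and 708.7 with overlapping ranges, and the interaction was -1.86 ± 0.45 (adjusted p = 0.0475), with -1.88 and -1.83 in the insert sets. Podxl, a sialylated surface protein, rose in the male cultures from 13.4 to 21.5 (median 19.4) to 27.7 to 527.4 (median 56.9) and fell in the female cultures from a median of 28.0 to 8.51. It had an interaction of -3.88 ± 0.80 (adjusted p = 0.0172), with -4.71 and -3.05 in the insert sets. Uchl1, a ubiquitin hydrolase used as a marker of neuroendocrine cells, had the lowest interaction of the named genes, at -5.46 ± 1.10 (adjusted p = 0.0147). It fell in the female cultures from a median of 66.7 (14.6 to 77.6) to 3.63 (1.18 to 20.4). In the male cultures it rose from 2.29 (1.12 to 3.22) to 31.2, although male smoke inserts 5 and 6 stood at 0.989 and 4.05. The neuroendocrine list held 7 tested genes, of which Uchl1 alone was called, where 1.02% of all autosomal genes were called. The insert sets gave Uchl1 -6.73 and -4.19.

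The sarcomere genes Acta1 and Myl7 rose in the male cultures. Acta1, skeletal muscle alpha-actin, rose there from 0 to 3.94 (median 1.66) to 4.44 to 32.3 (median 8.77), and it fell in the female cultures from 37.4 to 127.8 (median 59.2) to 3.42 to 34.8 (median 23.4). The interaction was -3.97 ± 0.73 (adjusted p = 0.00785) with 13 male air reads in all, and -2.83 with a pseudocount of 5. The insert sets gave Acta1 -4.37 and -3.57. Actin genes are close relatives, so reads may be split between them. Myl7, an atrial myosin light chain, rose in the male cultures from a median of 2.57 to 48.8 and had female medians of 43.7 and 34.1, with an interaction of -4.31 ± 0.78 (adjusted p = 0.00675) and -6.41 and -2.20 in the insert sets. Angptl4, an inhibitor of lipoprotein lipase, fell in the female cultures from 269.2 to 74.8 and rose in the male cultures from 9.95 to 36.7, giving -3.29 ± 0.62 (adjusted p = 0.00978). In inserts 1 to 3 its interaction was -1.64 and in inserts 4 to 6 it was -4.93. Gucy2g, a membrane guanylyl cyclase, had medians of 62.1 and 33.7 in the female cultures and rose from 3.04 to 13.3 in the male cultures, giving -2.68 ± 0.53 with -3.19 and -2.18 in the insert sets. Plb1, a phospholipase, fell in the female cultures from 670.6 to 2597 (median 812.3) to 61.6 to 264.4 (median 179.7). It had male medians of 30.1 and 32.4, and its interaction was -2.80 ± 0.50 (adjusted p = 0.00675), with -3.15 and -2.46 in the insert sets.

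Amtn, Adamts18 and Zfp469 fell in the female cultures, and their female air levels divided by insert number. Amtn, an adhesion protein best known from tooth enamel, held 54.6 to 176.5 normalised counts in female air inserts 1 to 3 and 823.8 to 880.9 in inserts 4 to 6, against 0 to 42.0 in female smoke. Adamts18, a secreted metalloproteinase, held 4.56 to 15.5 and 147.7 to 226.0 in the same sets, against 0 to 3.19 in female smoke. The male libraries held at most 2.21 normalised counts of Amtn and 2.77 of Adamts18, so their male folds are not given. Their interactions were -4.74 ± 1.13 (adjusted p = 0.0414) and -4.26 ± 1.05 (adjusted p = 0.0476). Amtn gave -2.69 in inserts 1 to 3 and -6.79 in inserts 4 to 6, and Adamts18 gave -2.22 and -6.30. Zfp469, a zinc finger protein linked to collagen fibrils, held 14.6 to 20.4 and 61.1 to 131.8 in those female air sets, and its interaction was -2.96 ± 0.72 (adjusted p = 0.0463), with -0.98 and -4.94 in the insert sets. With each library left out in turn, Amtn and Adamts18 remained called in 5 of the 24 fits and Zfp469 in 7.

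Beyond the named genes, the fibroblast and interstitial matrix list had a median interaction of -1.20 with 24 and -1.38 with 22 libraries. The median was -0.23 in inserts 1 to 3 and -2.27 in inserts 4 to 6, and -0.16 and -2.62 once the length-trend libraries were left out. Of its 14 tested genes limma called none with 24 libraries (6 had an unadjusted p under 0.05, while edgeR called 0 and DESeq2 called 3) and 4 with 22, all negative, namely Col5a2, Sparc, C1qtnf3 and Nell1. All 30 of its markers summed to 0.00769% to 0.0397% of the normalised total in female air, 0.00257% to 0.00573% in female smoke, 0.0123% to 0.0178% in male air and 0.00501% to 0.00962% in male smoke. Of the defining markers, Lum did not exceed 2.21 normalised counts in any library, and Col1a1 held 2.27 to 49.1 in female air. Dcn, which encodes the matrix proteoglycan decorin, was well above 0 in air, at 90.7 to 328.8 in female and 57.7 to 313.7 in male air, against 0 to 78.2 in female and 0 to 12.1 in male smoke. The mean log2 level of the tested genes in female air was 5.38 to 5.87 in inserts 1 to 3 and 7.10 to 7.76 in inserts 4 to 6. The part of other cells in these matrix genes was not tested. In the epithelial-mesenchymal transition list 5 of 28 genes were negative with 22 libraries, among them Fn1, which encodes fibronectin, at -3.13, and Vim, which encodes vimentin, at -2.05. In the actin list 5 of 40 were, including Vim again, against 2.53% of all autosomal genes called negative with 22 libraries. With 24 libraries limma called none in either list, and 9 and 8 genes had an unadjusted p under 0.05. There edgeR called 1 and 0, and DESeq2 called 2 in each.

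The motile cilia list depended on which libraries were used. Its 60 tested axoneme genes had a median interaction of -1.5 with 24 libraries, with a negative value for 60 of 60, and limma called none with 24 or 22 libraries. At an unadjusted p under 0.05 there were 5 and 4, edgeR called 0 and DESeq2 called 1. Without the length-trend libraries the median was -0.47. The mean log2 level was 8.97 to 9.92 in female air and 7.28 to 8.13 in male air. In smoke the female inserts spread from 2.58 to 9.06, with insert 4 the lowest, and the male inserts from 4.40 to 7.60, with insert 1 the lowest. The list's median was 0.48 in inserts 1 to 3 and -3.40 in inserts 4 to 6, and 0.43 and -1.68 once the length-trend libraries were left out. The sign thus differed between the sets, but inserts 1 to 3 include male smoke insert 1. Male smoke inserts 1, 2 and 3 stood at 4.40, 7.02 and 6.90, so the positive median there may rest on that 1 library.

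**Figure D3:**
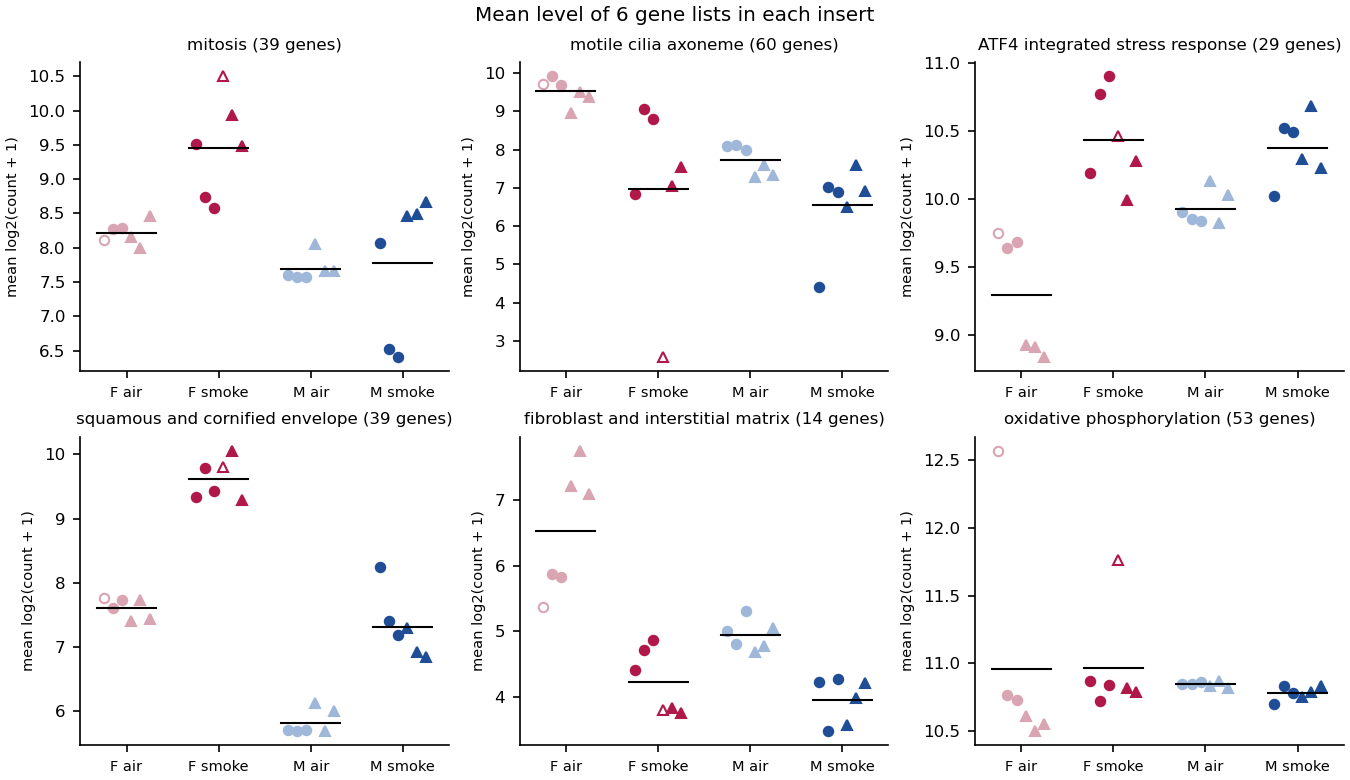
Mean of log2(normalised count + 1) over the tested genes of 6 lists in each of the 24 inserts, with the symbols and bars as for the single genes. Female smoke insert 4 is the lowest library for motile cilia at 2.58, and female air insert 1 the highest for oxidative phosphorylation at 12.57.

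The oxidative phosphorylation and ribosomal protein lists shifted when the length-trend libraries were left out. Oxidative phosphorylation had a median interaction of 0.06 with 24 libraries, with 35 of 53 values positive and no call by limma, edgeR or DESeq2, and 2 genes with an unadjusted p under 0.05. With 22 libraries the median was 0.25, 53 of 53 values were positive and 11 were called, among them the complex I subunit Ndufa4 at 0.62, the cytochrome oxidase subunit Cox8a at 0.45 and the ATP synthase subunit Atp5b at 0.32. These 11 of 53 are read beside 3.71% of all autosomal genes called positive with 22 libraries. The median was -0.57 in inserts 1 to 3 and 0.62 in inserts 4 to 6, and 0.12 and 0.29 once the length-trend libraries were left out. Mean list levels in the male libraries ran from 10.70 to 10.87, while female air inserts 2 to 6 ran from 10.50 to 10.77 and female air insert 1 stood at 12.57. Ribosomal protein genes had a median of -0.24 with 24 libraries and -0.02 with 22, with no call in either or by edgeR or DESeq2, and 0 and 1 gene with an unadjusted p under 0.05. In inserts 1 to 3 their median was -1.11 and in inserts 4 to 6 it was 0.62. Once the length-trend libraries were left out, these were -0.35 and 0.24.

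The lists tied to smoke itself are read beside 1.02% of all autosomal genes called with 24 libraries and 6.24% with 22. Of 12 tested targets of the aryl hydrocarbon receptor limma called none with 24 or 22 libraries (1 and 3 with an unadjusted p under 0.05), edgeR and DESeq2 called 0, and the median interaction was 0.01, though it was -0.01 when libraries were scaled to equal totals. Among 31 genes of the NRF2 and antioxidant list 1 was called with 24 libraries, Pgd of the pentose phosphate pathway. Pgd rose in the female cultures from 4019 to 5760 (median 4698) to 7136 to 9530 (median 7815), and male medians were 5812 and 6330 with overlapping ranges. Its interaction was 0.65 ± 0.15 (adjusted p = 0.0376), with 0.40 and 0.90 in the insert sets. With 22 libraries Gpx2 and the ferritin heavy chain Fth1 joined it, at 0.86 and 1.37. Of 22 glutathione transferases 3 were positive with 22 libraries, namely Gsta3, Gstm2 and Gstk1, each with a fall in the male cultures. The 18 tested cytochrome P450 and flavin monooxygenase genes had a median interaction of 0.32 with 24 and 0.58 with 22 libraries. None was called with 24 libraries (5 had an unadjusted p under 0.05, edgeR called 1 and DESeq2 called 3), and with 22 libraries Cyp2a5, at 2.69, and the P450 reductase Por, at 0.76, were positive. In the heat shock and p53 lists limma called no gene in either fit. With 24 libraries 1 of 20 and 5 of 30 had an unadjusted p under 0.05, edgeR called 0, and DESeq2 called 2 and 1.

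**Figure D4:**
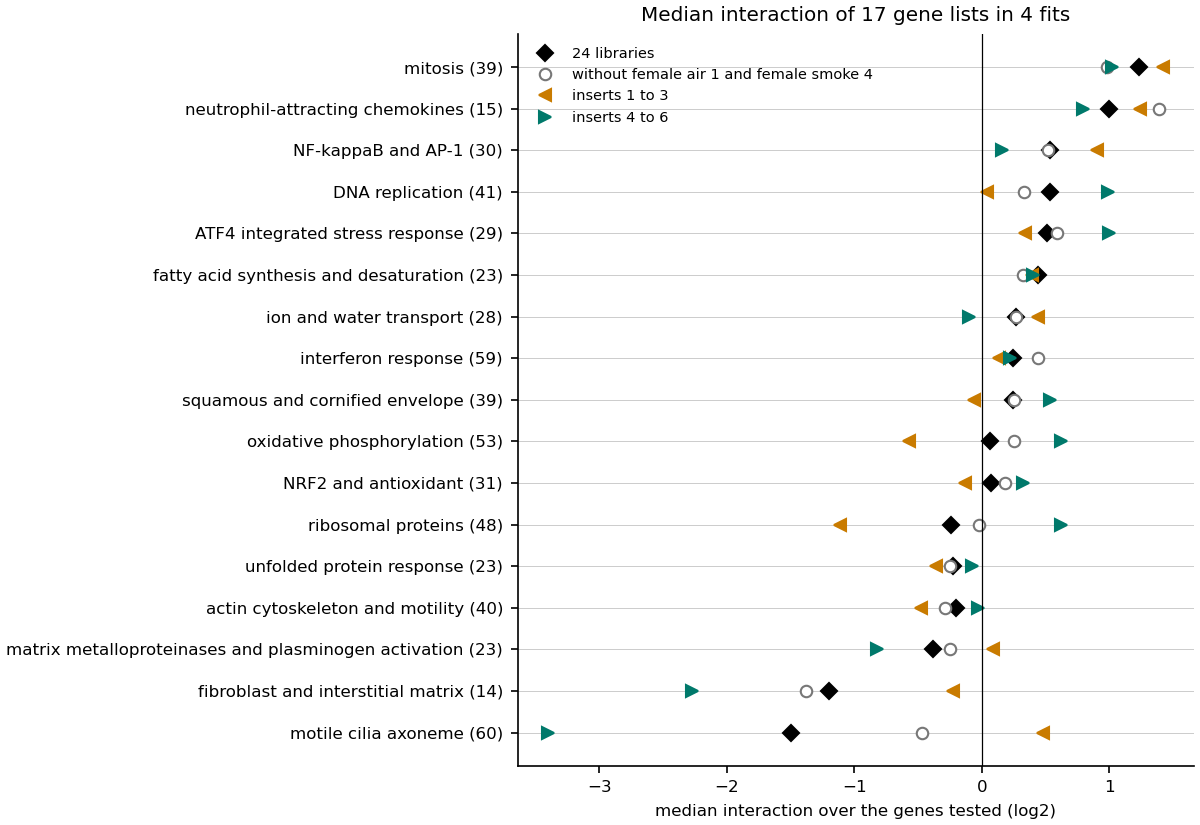
Median interaction in log2 units over the tested genes of 17 lists, with the number of genes in brackets, from all 24 libraries, from 22 libraries and from each set of inserts. The mitosis and chemokine medians are positive in all 4 fits, whereas motile cilia run from 0.48 in inserts 1 to 3 to -3.40 in inserts 4 to 6.

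Of the 36 named genes, 19 were called in all 24 fits that each left out 1 library, and none changed sign. The 17 others lost the call in at least 1 of these fits. Their interactions moved less than their calls: Ifit1 ran from 2.61 to 3.27 and was called in 11 of the 24 fits, and Cxcl3 ran from 2.59 to 3.25 and was also called in 11. Scnn1b ran from 1.94 to 2.47 with 16 calls, and Plau from -2.19 to -1.72 with 6. Slc7a5 and Aadat were called in 7 fits each, Pgd in 9, Junb in 6, Pglyrp4 in 7, Wnt3a in 12, Wfdc12 in 16, Sbsn in 17, Nrg1 in 19 and Scnn1g in 23. Scd1 ran from 2.32 to 2.58 and Gja1 from 1.87 to 2.04, both called in all 24. In edgeR on the recovered reads 9 of the named genes were not called, namely Plau, Amtn, Adamts18, Pgd, Junb, Slc7a5, Sprr2f, Aadat and Wfdc12. Their edgeR values kept the sign, and 2 moved by over 1.5 times, Amtn to -2.18 and Adamts18 to -7.06.

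The called genes often differed between the culture sets before any smoke. Between female and male air 5113 autosomal genes differed (39%), and between female and male smoke 4210 did (32.1%). Of the 134 genes, 101 differed in air and 92 in smoke, with 59 in both, 42 in air alone and 33 in smoke alone. In 86 of the 134 the absolute difference between the sexes was smaller in smoke than in air, as it was for 58.5% of all autosomal genes. Scd1, Ptgs2, Nrg1 and Ifit1 are examples in which the female level moved towards the male, and Spink5, Krt23, Fads2b and Tmprss11a are examples in which air ranges overlapped and smoke ranges did not. The component comparisons share libraries with the interaction, so these counts describe the calls and add no separate evidence.

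Runs of neighbouring called genes were counted without an expected number, so the counts do not show whether neighbours tend to be called together. With 24 libraries no 3 neighbouring tested genes were called with the same sign. Such a run is unlikely in any case where 0.678% of genes were called positive and 0.343% negative. With 22 libraries there were 5 such runs of 3 genes, among them Rptn, Tchh and S100a11 in the epidermal cluster of chromosome 3, all positive. By transcript length, called genes made up 0.823% of the 3281 genes with the shortest transcripts and 0.945% of the 3281 with the longest with 24 libraries, and 5.15% and 7.19% with 22. The median interaction ran from -0.10 in the shortest to 0.05 in the longest with 24 libraries, and from 0.01 to -0.02 with 22. The median transcript length was 3150 bases for the 89 positive and 2343 for the 45 negative genes, against 2965 for all. With 22 libraries the order was reversed, at 2947 for the 487 positive and 3607 for the 332 negative genes.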

How the data were processed

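RNA of 24 inserts was sequenced, per the labels. The values are a signal, counts that the authors deposited after normalising them with DESeq2, a step named in the submitters' processing notes with FastQC 0.11.9, Trimmomatic 0.38.0 and HTSeq. In the sources used here no aligner and no strandedness is given, so reads of overlapping antisense genes cannot be told apart. In 23 libraries the values were whole multiples of 1 step within 0.001 reads. These gave depths of 16038813 to 24485024 reads (median 18205682), which set the precision of low counts. Those of male smoke insert 5 were whole multiples too, but its step of 0.989 lay too near 1 to be claimed as recovered, so counts were tested without it. Positions, a unit classed as other, came from the mm10 columns of the authors' deposited table.

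Genes with a mean of at least 10 were tested (13549, of which 13124 autosomal) with limma 3.58.1 in R 4.3.3 on log2(value + 1), eBayes with a trend, 1 term per group, two-sided contrasts and Benjamini-Hochberg adjustment over all tested genes, called at 0.05. The procedure was tested on simulated data. edgeR 4.0.16 and DESeq2 1.42.0 were run on recovered reads as alternatives, beside other scalings, pseudocounts of 0.5 and 5, filters, array weights, a block, a length correction and libraries left out.

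The members, the 46 lists and the alternatives were chosen with earlier results of these data known, and the lists were described by counts and medians without a set test. Named genes were called in both fits with the same sign, had a mean of at least 50 in 1 group and were no predicted models. They were the 12 highest and 12 lowest interactions, up to 2 per list and 4 per pattern of responses, with members of the longest neighbour runs and genes lost without the length-trend libraries, of which there were none. Other list members could be given as examples. RefSeq promoters were matched by symbol for 79.6% of the autosomal genes tested and 76.9% of those called, so no comparison of promoters between sets was made. Interactions of genes on the sex chromosomes were not used here.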

Additional observations from a re-analysis of the deposited data

Results flagged for a closer look

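Each named gene is listed because its smoke response differed between the female and male cultures in the interaction test. In log2 units the negative interactions were -5.46 for Uchl1, -4.74 for Amtn, -4.31 for Myl7, -4.26 for Adamts18, -3.97 for Acta1, -3.88 for Podxl and -3.64 for Ppbp. Lower in size were -3.29 for Angptl4, -2.96 for Zfp469, -2.80 for Plb1, -2.68 for Gucy2g, -2.44 for Sbsn, -2.40 for Pglyrp4 and -1.86 for Plau. The positive interactions began with 0.65 for Pgd, 0.90 for Junb, 0.92 for Bcl3, 1.37 for Nrg1, 1.44 for Slc7a5, 1.59 for E2f2, 1.72 for Scnn1g and 2.16 for Scnn1b. They went on with 2.39 for Fads2b, 2.47 for Scd1, 2.76 for Wnt3a, 2.88 for Cxcl3, 2.89 for Ifit1, 2.90 for Wfdc12, 2.93 for Krt23 and 2.98 for Aldh1l2. The highest were 3.27 for Aadat, 3.29 for Spink5, 3.36 for Ptgs2, 3.78 for Sprr2f, 4.01 for Gpnmb and 4.20 for Tmprss11a.

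A single library lay far from the other 5 of its group by Dixon's ratio in 13 of 144 gene groups (9.03%), where chance alone gives about 1 in 20. Female air insert 1 held 5 of these, with 599.4 normalised counts of Scd1, 121.7 of Nrg1, 170.4 of Myl7, 2597 of Plb1 and 1596 of Sbsn. Female smoke insert 4 held 466.3 of Gpnmb, the lowest of its group, and 2419 of Plau, the highest. In male smoke, insert 2 held 0 of Aadat and 656.0 of Bcl3, and insert 3 held 32.3 of Acta1 and 2.77 of Tmprss11a. In male air, insert 2 held 105.2 of Cxcl3 and insert 6 held 0.731 of Adamts18, a value of 1 read.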

How the results depend on the processing

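All 134 genes had the same sign under every alternative that gave them a value, while the number called moved. Scaling to equal totals gave 58 positive calls, and quantile scaling gave 207 calls, 139 positive and 68 negative. A mean of at least 50 gave 24 negative calls. Array quality weights gave 2358 calls, 1231 positive and 1127 negative. Leaving out both length-trend libraries gave 819, 487 and 332. Inserts 1 to 3 alone gave 37, 30 and 7, and inserts 4 to 6 alone gave 619, 243 and 376. Without the length-trend libraries these sets gave 359 and 2625 calls. Removing the length trend gave 344, 195 and 149. DESeq2 on recovered reads gave 495, 245 and 250, and edgeR gave 151, of which 79 were positive and 72 negative. The cause was not tested. With each replicate left out in turn the count ran from 71 to 419, the positive count from 52 to 229 and the negative count from 19 to 190. The highest values came without female air replicate 1. Female smoke replicate 6 gave 71, and leaving out female air replicate 4 or 6, female smoke replicate 5 or male air replicates 1, 2, 3, 4, 5 or 6, or male smoke replicate 2, gave 72 to 89. Of the 134 genes 61 were called in all 24 of these fits. Insert number as a replicate block gave 107 calls, among them 90 of the 134, and 9 of the 36 named genes lost the call (Pglyrp4, Zfp469, Adamts18, Amtn, Junb, Scnn1b, Wnt3a, Cxcl3 and Aadat). The labels give the numbers no shared source, and the main fit did not treat them as pairs. Of 36 same-number pairs 14 correlated above 0.1 (-0.242 to 0.367), and 8 of 24 libraries correlated best with their own number. These values do not settle whether the numbers pair the samples. Between female air and female smoke, numbers 2 to 6 correlated at 0.115 to 0.367 and number 1, which includes a length-trend library, at -0.206. With 22 libraries, edgeR gave 987, the length correction 849 and the block 830. These fits with 22 libraries, and the insert sets without the length-trend libraries, were chosen after seeing the data.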
